A study of Mus musculus with 15 samples.

Results

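The 70 genes described here had their highest expression at postnatal day 8 (P8) in samples enriched for developing mouse Purkinje cells (PCs). PCs are the large inhibitory neurons that carry the output of the cerebellar cortex. The 70 genes were chosen from the 38561 genes listed in the count tables, of which 20928 had at least 1 count. The measure was CPM, a gene's count per 1000000 gene counts of its library. A gene was kept if its mean over the 3 P8 libraries was at least 10 CPM and its lowest P8 value was above its highest value in the 12 other libraries. Of the 9583 genes with a mean of at least 10 CPM at P8, 70 (0.73%) met the second condition. About 30 such genes are expected by chance: the 3 highest libraries of 12193 genes averaged at least 10 CPM, 3 libraries can be drawn from 15 in 455 ways, and the quotient is 26.8. The same rule applied to the other time points gave 484 genes at P0 (4.91%), 101 at P4 (1.04%), 66 at P14 (0.729%) and 308 at P21 (3.56%). The P8 values chose the 70 genes, so their level at P8 and its excess over other time points are given as a description, without a test.

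The study collected PCs by laser microdissection from cerebellar sections of untreated mice at 5 ages (P0, P4, P8, P14 and P21), each represented by 3 biological replicates. The strain is entered as C56/BL6 in the labels and as male C57/BL6 in the study's methods, and neither names the substrain. Individual cell bodies were cut out at P4 and later, whereas clusters of PCs were taken at P0. The RNA was amplified from very small amounts and sequenced, and the tables hold between 3409371 and 7814951 gene counts per library, so that 1 count is worth 0.128 to 0.293 CPM. Capture was not free of neighbouring cells. The summed level of 12 PC markers was 7031 to 8915 CPM at P0, 21392 to 23357 at P8 and 36491 to 43855 at P21, and that of 10 markers of Bergmann glia and astrocytes was 8739 to 10550 CPM at P8. Among the defining markers of other cells, Atoh1 (granule cell precursors), Mog (oligodendrocytes), Ttr (choroid plexus) and Lum (meninges) had no count in any P8 library. In such bulk samples, fewer cells of a type and less RNA per cell cannot be told apart.

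Some libraries stood apart in ways that bear on single genes. Dynlt1b, a light chain of the motor dynein and one of the 70 genes, was at 0 to 0.929 CPM in 8 libraries, namely those of P0 and P4 and replicates 2 and 3 of P14. In the 7 other libraries, those of P8 and P21 and replicate 1 of P14, it was at 11.8 to 76.9 CPM. Wdfy1, which is not among the 70 genes, was divided the other way, with 91.4 to 263 CPM in the 8 libraries and 10.8 to 21.7 in the 7. What sets these libraries apart was not tested. Age and this division cannot be told apart for the early libraries, since all of P0 and P4 fell on one side of it and all of P8 on the other. Replicate 1 of P0 had 328 CPM of Xist, which is transcribed from the inactive X chromosome of females, and no count of the Y-linked gene Ddx3y, unlike the 14 other libraries. Without that library 89 genes met the rule. The 70 are among them by construction, because leaving out a library outside P8 can add genes but cannot remove any.

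**Figure D1:**
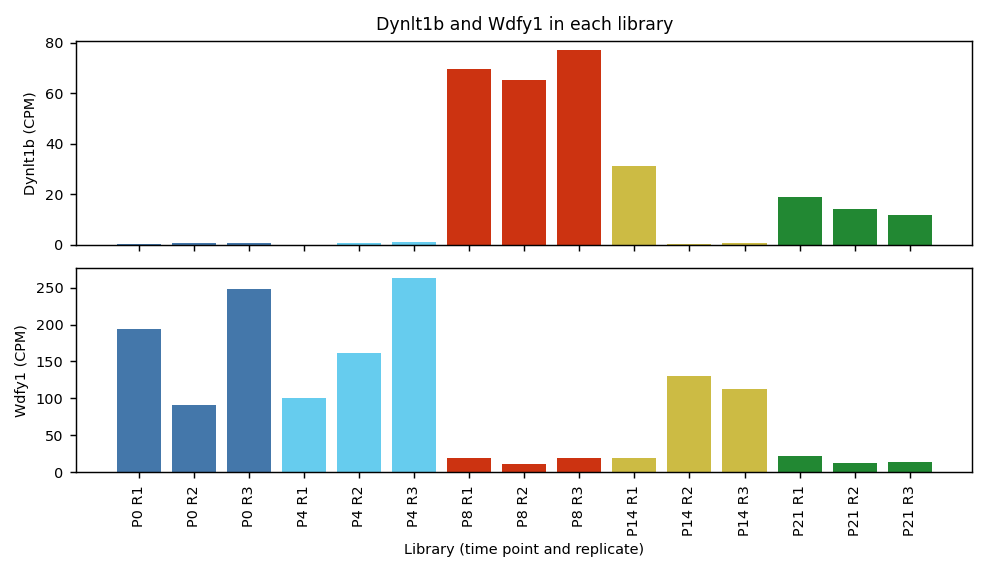
CPM (vertical axes, linear, from 0) of Dynlt1b and Wdfy1 in each of the 15 libraries, 1 bar per library, coloured by age. Dynlt1b is at or near 0 in the same 8 libraries in which Wdfy1 is at 91.4 CPM or more.

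P8 lies within the period in which the PC dendrite branches out, climbing fibre inputs are pruned to a single winner and parallel fibre synapses form. Around PCs, granule cell precursors divide in the outer layer and their daughters migrate inward along Bergmann glia, the astrocytes whose bodies lie beside those of PCs. The suckling brain takes much of its energy from ketone bodies made by the liver from the fat of milk, and mitochondria break these down to acetyl-CoA.

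The 70 genes were 66 protein-coding genes, 2 antisense genes, 1 processed transcript and 1 processed pseudogene. Their mean level at P8 ranged from 11.4 to 1229 CPM, with a median of 65.8. Most of the peaks were small. The mean at P8 over the mean of the 12 other libraries had a median of 2.25 and was under 1.5 in 8 genes, 1.5 to 2 in 16, 2 to 4 in 31 and 4 or more in 15. The lowest P8 library exceeded the highest other library by a median ratio of 1.08, by under 1.1 in 39 genes and by 1.5 or more in 7. Those 7 were Rasd1 (2.87), Gfap (2.43), Dynlt1b (2.1), Slc22a8 (1.63), 8030453O22Rik (1.59), Bdh1 (1.56) and Map3k3 (1.55). The age with the next highest mean was P4 for 33 genes, P14 for 28, P0 for 5 and P21 for 4. The age with the lowest mean was P0 for 29, P21 for 28, P4 for 9 and P14 for 4. As a share of the P8 mean, the median gene stood at 32.2% at P0, 54.2% at P4, 48.9% at P14 and 35.4% at P21. Replicate 1 of P4 was the highest library outside P8 for 18 of the 70 genes, more than any other library.

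**Figure D2:**
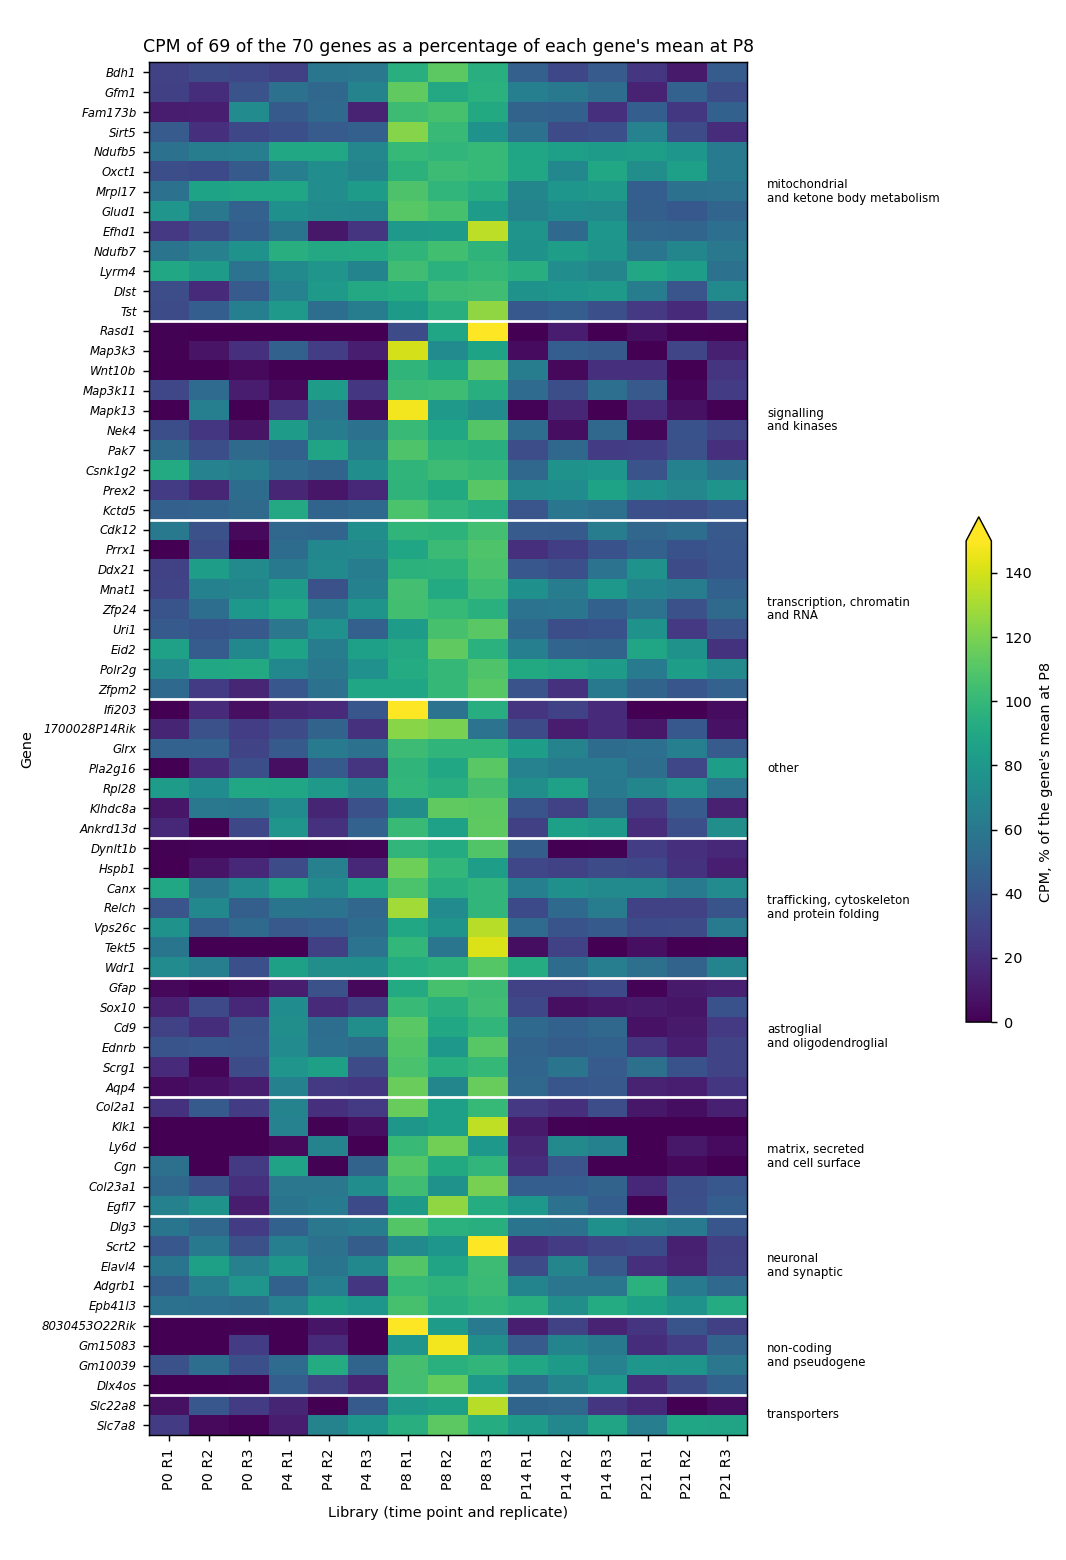
CPM of 69 of the 70 genes (lines, grouped by role and ordered within a role by the ratio of the lowest P8 to the highest other library) in the 15 libraries (columns), as a percentage of each gene's mean at P8. The 3 P8 columns are the brightest in every line because the rule chose the genes that way, and the columns beside them differ between roles.

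Just inside the rule were Epb41l3, whose lowest P8 library and highest other library both had 208 CPM when rounded, and Wdr1, for which both had 200 CPM. Just outside it were Emid1 (31.2 against 31.2), the ATP synthase subunit genes Atp5g1 (673 against 675) and Atp5f1 (1021 against 1027), the complex I subunit gene Ndufs4 (416 against 418) and Dcaf7 (160 against 162). The line between them was thinner than the spread of the P8 replicates. With library sizes scaled by TMM instead, 51 genes met the rule, 49 of them among the 70. The 21 that did not meet it then were Sirt5, Ndufb5, Gm15083, Pla2g16, Uri1, Oxct1, Rpl28, Prex2, Slc7a8, Gm10039, Eid2, Efhd1, Egfl7, Adgrb1, Lyrm4, Dlst, Polr2g, Ankrd13d, Dlx4os, Wdr1 and Epb41l3, so that the peak of each of these at P8 depends on the scaling.

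By role, as assigned once the genes were known, 6 of the 70 are typical of astrocytes or oligodendrocytes. Gfap, the intermediate filament of astrocytes (GRCm38, chr11:102887336-102900912, minus strand), had 8.75, 0.223 and 9.75 CPM in the P0 libraries, 33.4, 109 and 9.66 at P4, 266, 309 and 300 at P8, 86.7, 83.9 and 97 at P14 and 3.81, 31.5 and 38 at P21. The lowest P8 library, at 266 CPM, was well above the highest other library, at 109, and the 3 P14 libraries lay closely together at an intermediate level. Ednrb, the endothelin B receptor (chr14:103814625-103844402), was the most abundant of the 70 in CPM, with 482, 504 and 485 CPM in the P0 libraries, 888, 672 and 640 at P4, 1340, 981 and 1366 at P8, 587, 545 and 569 at P14 and 278, 153 and 376 at P21. Aqp4, the water channel of astrocyte endfeet, had 44.6, 76.2 and 125 CPM in the P0 libraries, 676, 264 and 243 at P4, 1186, 710 and 1185 at P8, 518, 413 and 431 at P14 and 155, 129 and 243 at P21. In both genes P8 replicate 2 was the lowest of its age, and for Aqp4 it lay near the highest P4 library. Cd9, a tetraspanin of glia and other cells (chr6:125460266-125494791), had 139, 95.8 and 186 CPM in the P0 libraries, 358, 261 and 357 at P4, 539, 431 and 475 at P8, 247, 225 and 243 at P14 and 36.7, 53.5 and 124 at P21, a level that was lowest at P21. Scrg1, a small secreted protein of glia, was at 134 ± 8.34 CPM at P8 (mean ± SD, n = 3), and Sox10, a transcription factor of the oligodendrocyte lineage, at 21.7 ± 1.06 against 15.8 in the highest other library. Per kb of exon, the P8 level was highest for Ednrb (288 CPM per kb), Cd9 (236), Scrg1 (192) and Aqp4 (165), and lower for Gfap (69.1) and Sox10 (7.1). The median gene of the 6 stood at 19.7% of its P8 level at P0, 49.7% at P4, 45.2% at P14 and 18% at P21. The RefSeq promoters of Gfap and Cd9 (GRCm38.p6, 250 bases before to 50 after the start, 5′ to 3′) are shown as examples of this group. Capitals mark the nuclear receptor half-site AGGTCA, on the reverse strand 85 bases before the start, in Gfap (chr11:102897151-102897450, minus strand), and the GC boxes GGGCGG, 81 and 60 bases before the start, in Cd9 (chr6:125494711-125495010, minus strand).
Gfap promoter: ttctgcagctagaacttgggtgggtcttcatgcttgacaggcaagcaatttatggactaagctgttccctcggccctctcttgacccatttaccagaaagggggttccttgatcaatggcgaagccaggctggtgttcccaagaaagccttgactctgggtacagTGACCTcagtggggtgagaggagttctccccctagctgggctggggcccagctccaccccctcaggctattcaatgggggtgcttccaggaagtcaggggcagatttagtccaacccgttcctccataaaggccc
Cd9 promoter: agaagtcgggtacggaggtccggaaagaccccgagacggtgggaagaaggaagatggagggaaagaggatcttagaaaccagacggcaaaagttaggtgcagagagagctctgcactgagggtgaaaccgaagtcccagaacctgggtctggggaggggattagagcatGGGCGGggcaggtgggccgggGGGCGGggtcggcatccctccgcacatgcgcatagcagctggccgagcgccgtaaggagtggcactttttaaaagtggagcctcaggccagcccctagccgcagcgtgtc

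Other genes of these cells did not all peak at P8. Of the 10 markers of Bergmann glia and astrocytes, 4 had their highest mean at P8 (Fabp7, Aldh1l1, Aqp4 and Gfap), 3 at P14 (Slc1a3, Gdf10 and Hopx), 2 at P21 (S100b and Slc1a2) and 1 at P0 (Sox9). Aqp4 and Gfap are among the 4 because the rule chose them. The share of all genes with their highest mean at P8 is not given here, so the count has no background. Without Gfap and Aqp4, the summed level of the other 8 was 4596 to 6330 CPM at P0, 5626 to 9282 at P4, 7720 to 9065 at P8, 5393 to 6053 at P14 and 2838 to 4227 at P21. P8 and P4 overlapped in this sum, and all P8 libraries were above all P0, P14 and P21 libraries. The 5 markers of oligodendrocyte progenitors other than Sox10 summed to 66.2 to 93.9 CPM at P8, within the range of P4 (41.2 to 135). The 6 microglial markers summed to 33.5 to 41.7 CPM at P8 and to at most 29.2 in any other library, and the 6 vascular markers to 143 to 266 CPM at P8, overlapping P0 (104 to 276) and P4 (72 to 233). The 6 markers of immature granule cells summed to 771 to 1168 CPM at P8, overlapping P4 (445 to 893) and P14 (382 to 885). The part of these cells in the P8 level of the 6 genes was not tested.

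**Figure D3:**
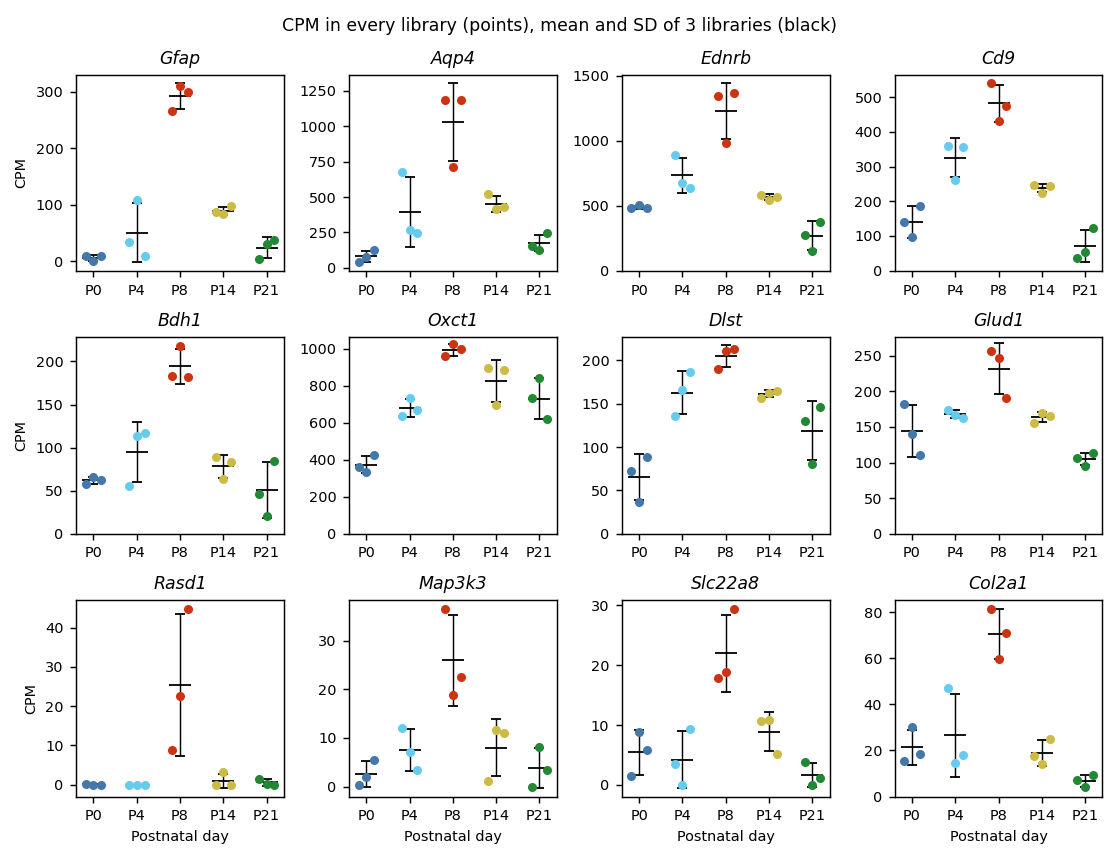
CPM (vertical axes, linear, scale differs by gene) of 12 of the 70 genes at each age. Coloured points are libraries, black lines the mean and SD of 3 libraries. In all 12 panels every P8 point is above every other point. The ratio of the lowest P8 point to the highest other point is largest in Rasd1 (2.87) and Gfap (2.43). It is smallest in Dlst (1.02), Aqp4 (1.05) and Glud1 (1.05).

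The largest group by role, 13 genes, acts in mitochondria. The share of such genes among all genes at 10 CPM or more at P8 is not given here, so the size of the group has no background. Its peaks were the smallest of the role groups, with a median P8 mean of 1.61 times the mean elsewhere. Of the 13, Sirt5, Ndufb5, Oxct1, Efhd1, Lyrm4 and Dlst did not meet the rule with TMM scaling. Bdh1, which oxidises the ketone body 3-hydroxybutyrate (chr16:31422280-31458901), had 57.6, 66.2 and 62.2 CPM in the P0 libraries, 55.2, 114 and 117 at P4, 183, 218 and 182 at P8, 89, 63.3 and 83.1 at P14 and 46.3, 20.5 and 84.9 at P21. Its next step, Oxct1, which activates acetoacetate for use (chr15:4026383-4155344), had 361, 334 and 425 CPM in the P0 libraries, 639, 733 and 668 at P4, 958, 1023 and 1000 at P8, 896, 694 and 887 at P14 and 734, 840 and 618 at P21. The 2 genes differed in shape: Bdh1 stood at 49% of its P8 level at P4 and 40.4% at P14, and Oxct1 at 68.4% and 83.1%. Acat1, the last enzyme of the path, and the carrier Slc16a1 are outside the 70 genes and were looked up after these were known. Acat1 was at 504 ± 27.3 CPM at P8 and 463 ± 123 at P4 (mean ± SD, n = 3 throughout), and Slc16a1 at 89.8 ± 9.85 at P8 and 88.1 ± 11.8 at P14. For both genes these differences were smaller than the larger of the 2 SDs. The promoter of Oxct1 (RefSeq, GRCm38.p6, chr15:4026178-4026477, plus strand) holds 1 E-box, CANNTG, 37 bases after the start (capitals).
Oxct1 promoter: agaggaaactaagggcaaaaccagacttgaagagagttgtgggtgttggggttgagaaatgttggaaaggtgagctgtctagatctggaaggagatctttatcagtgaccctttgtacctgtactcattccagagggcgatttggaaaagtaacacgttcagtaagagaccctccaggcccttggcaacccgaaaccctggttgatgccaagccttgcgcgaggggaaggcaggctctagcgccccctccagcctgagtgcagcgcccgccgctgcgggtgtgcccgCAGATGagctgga

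Around the citric acid cycle, Dlst, the E2 subunit of 2-oxoglutarate dehydrogenase (chr12:85110833-85134845), had 72.8, 36.3 and 88 CPM in the P0 libraries, 136, 166 and 186 at P4, 190, 211 and 213 at P8, 157, 162 and 165 at P14 and 130, 80.6 and 146 at P21, and P4 replicate 3 reached the P8 range within a few CPM. Glud1, which turns glutamate into 2-oxoglutarate (chr14:34310727-34345265), had 182, 140 and 110 CPM in the P0 libraries, 174, 167 and 163 at P4, 257, 247 and 191 at P8, 156, 169 and 166 at P14 and 106, 95.6 and 113 at P21. Both genes therefore had 1 library near the boundary, P4 replicate 3 for Dlst and P8 replicate 3 for Glud1. The complex I subunits Ndufb5 and Ndufb7 were abundant, at 440 ± 5.37 and 561 ± 21.2 CPM at P8, and were at 82.8% and 92.3% of that at P4, 61.3% and 66.7% at P0 and 74.7% and 62.4% at P21. In mitochondrial protein synthesis, the elongation factor Gfm1 was at 92.5 ± 11.5 CPM at P8, with 57.9% of that at P4 and 59.8% at P14, and the ribosomal protein Mrpl17 at 217 ± 15.7, with 82% and 76.3%. Sirt5, a deacylase that removes succinyl and malonyl groups, had 27.2, 22.5 and 17 CPM at P8 and at most 14.7 elsewhere. Lyrm4, needed for iron-sulfur cluster assembly, was at 123 ± 4.69 CPM, Tst, a sulfurtransferase, at 256 ± 57.5, the calcium-binding Efhd1 at 39.1 ± 12 and the methyltransferase Fam173b at 44 ± 3.51. The median of the 13 was 37.5% of the P8 level at P0, 68.4% at P4, 70.7% at P14 and 51% at P21, a flatter course than that of the glial genes. None of the 10 mitochondrially encoded genes with a mean of at least 10 CPM at P8 met the rule, and of 79 cytosolic ribosomal protein genes at that level only Rpl28 did, counts that cannot be told apart from the 0.73% of all genes at that level. The Sirt5 promoter (RefSeq, GRCm38.p6, chr13:43365285-43365584, plus strand) is shown because it is the only one of the 70 genes' promoters examined with a ROR half-site, the AGGTCA half-site with the flank preferred by the ROR receptors, one of which, RORα, is needed for PC maturation. The match (capitals) is on the reverse strand, 196 bases before the start.
Sirt5 promoter: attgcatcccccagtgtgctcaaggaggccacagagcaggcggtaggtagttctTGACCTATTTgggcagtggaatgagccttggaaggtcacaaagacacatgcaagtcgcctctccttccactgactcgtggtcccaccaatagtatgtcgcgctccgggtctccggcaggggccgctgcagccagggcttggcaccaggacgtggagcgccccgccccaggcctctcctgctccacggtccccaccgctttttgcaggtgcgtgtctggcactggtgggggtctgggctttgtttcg

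**Figure D4:**
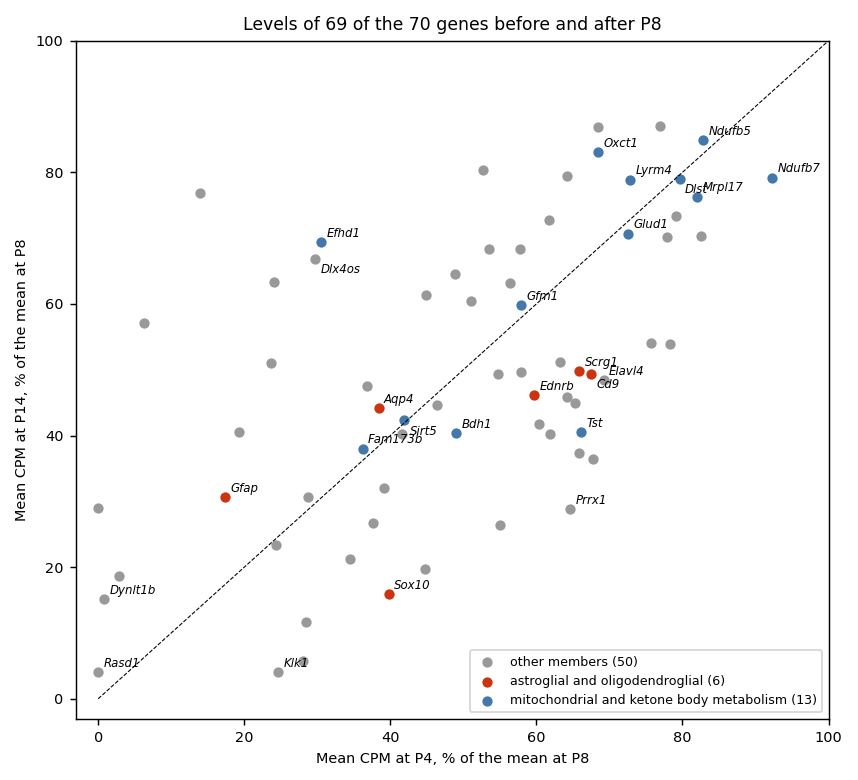
Mean CPM at P4 (horizontal) and at P14 (vertical) of 69 of the 70 genes, each as a percentage of the gene's mean at P8, 1 point per gene. The dashed line marks equal levels at both ages. The 6 glial genes (red) lie below 70% on both axes and 11 of the 13 mitochondrial genes (blue) lie above 40% on both.

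Over the 52 of the 70 genes matched in the RefSeq promoter table, the median GC content was 59.3%, against 52.7% over all 27025 promoters. A GC box on either strand was present in 51.9% of the 52 and 35.9% of all, and an E-box in 73.1% and 72.1%. The TATA box TATAAA was found in 2 of the 52 (3.85%, Gfm1 and Ndufb7) and in 14.2% of all promoters. AGGTCA occurred in 5 of the 52 (9.62%, Gfap, Gfm1, Klk1, Sirt5 and Col23a1) and in 16% of all, and the ROR half-site, which contains it, in Sirt5 alone (1.92%) and in 0.222% of all. CACGTG, a form of the E-box, was in 1 of the 52 (1.92%, Cgn) and in 7.24% of all. The cyclic AMP response element TGACGTCA and the Ebf site were in none of the 52 and in 1.88% and 0.914% of all. The AP-1 site TGANTCA was in 5.77% of the 52 and 7.93% of all, and ACANNNTGT, a glucocorticoid receptor site, in 5.77% and 6.9%. The 2 sets are not matched: the 70 genes had to reach a mean of 10 CPM at P8, whereas all promoters include those of genes at any level. For the 52 genes the promoter nearest to the annotated gene start was taken, and otherwise the first one listed for each gene. Differences in these shares can therefore not be read as particular to genes peaking at P8. These matches are letters in a window of 300 bases and say nothing about binding.

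Among 10 genes of signalling and kinases, Rasd1, a small GTPase induced by glucocorticoids (chr11:59963181-59964944), had the sharpest peak of all. It had 0.213, 0 and 0 CPM in the P0 libraries, 0, 0 and 0 at P4, 8.91, 22.5 and 44.7 at P8, 0, 3.1 and 0 at P14 and 1.47, 0.18 and 0 at P21. The P8 libraries were far apart among themselves, from 8.91 to 44.7 CPM, and 8 of the 12 others had no count. Map3k3, a kinase upstream of MAP kinases, had 0.213, 2.01 and 5.44 CPM in the P0 libraries, 12.1, 7.04 and 3.34 at P4, 36.5, 18.8 and 22.6 at P8, 1.18, 11.7 and 11 at P14 and 0, 8.1 and 3.43 at P21. Wnt10b, a Wnt ligand, had 11.2, 10.2 and 12.9 CPM at P8, 7.25, 0.365 and 2.33 at P14 and 2.35, 0 and 2.57 at P21, and at most 0.454 at P0 and P4. The kinases Map3k11 (14.8 ± 0.659 CPM at P8), Mapk13 (13.7 ± 5.64) and Nek4 (20.6 ± 2.13) were low throughout. Pak7, a p21-activated kinase of neurons, was at 63.5 ± 4.94 CPM and Kctd5, an adaptor of ubiquitin ligases, at 63.5 ± 4.48, both with the next highest mean at P4. Csnk1g2, a casein kinase, was at 43.3 ± 0.988 CPM at P8 and at 32 ± 6.72 at P0. Prex2, an exchange factor for Rac, was at 21.7 ± 12.9 CPM at P0 and 9.52 ± 2.84 at P4, and at 68.1 ± 6.91, 52.3 ± 5.94 and 50.4 ± 2.77 at P8, P14 and P21. Of the 10 it had the highest level at P14 relative to P8, 76.8%.

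Among the neuronal and synaptic genes, Dlg3, a scaffold of excitatory synapses, had 57.9, 50.7 and 50 CPM at P8 and at most 39.9 elsewhere. Elavl4, an RNA-binding protein of young neurons, was at 75.9 ± 15, 75.5 ± 11.5, 109 ± 12.2, 52.8 ± 19.3 and 23.3 ± 7.64 CPM from P0 to P21, and Scrt2, a neuronal repressor, at 46.5 ± 20.4 CPM at P8 and 11.7 ± 5.02 at P21. Adgrb1, an adhesion receptor of synapses, was at 20.3 ± 0.51 CPM at P8 with replicates close together, and Epb41l3, a membrane skeleton protein, at 220 ± 13.1 with 87% of that at P14. No gene among 31 potassium channel genes, 29 GABA and glutamate receptor subunits, 23 voltage-gated calcium and sodium channels, 21 semaphorins, plexins and neuropilins, 16 protocadherins or 11 ephrins and Eph receptors with a mean of at least 10 CPM at P8 met the rule. Nor did any of 19 genes of climbing fibre refinement or 26 of PC dendrite growth at that level. At the 0.73% of all genes, fewer than 1 gene is expected in a list of any of these sizes, so that these counts of 0 show nothing particular to the lists.

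The 9 genes of transcription, chromatin and RNA had low peaks. Cdk12, a kinase of elongating RNA polymerase II, had 78.9, 78 and 84.4 CPM at P8 and at most 59.8 elsewhere. Prrx1, a homeobox factor, had 18.5, 21.3 and 22.6 CPM at P8, 11, 14.6 and 14.7 at P4 and 4.22, 5.84 and 7.9 at P14. Zfp24, a zinc finger factor, was at 85.9 ± 4.01 CPM at P8, Zfpm2, a partner of GATA factors, at 41.9 ± 4.73, Ddx21, an RNA helicase, at 41.5 ± 2.46, and Mnat1, of the CDK-activating kinase, at 41.6 ± 3.04. Uri1, a prefoldin-like protein, was at 56.4 ± 8.96 CPM, Eid2, an inhibitor of acetyltransferases, at 25 ± 2.97, and Polr2g, a subunit of RNA polymerase II, at 177 ± 14.3 with 86.9% of that at P14. Of 216 zinc finger genes with a mean of at least 10 CPM at P8, 2 met the rule, a share of the same order as the 0.73% of all genes.

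Genes of the matrix and cell surface had the lowest relative level at P21, with a median of 7.06% of the P8 level over 6 genes. Col2a1, the chain of cartilage collagen (chr15:97975602-98004695), had 15.6, 30.1 and 18.4 CPM in the P0 libraries, 47.3, 14.5 and 18 at P4, 81.3, 59.8 and 70.9 at P8, 17.5, 14.1 and 25 at P14 and 7.04, 3.96 and 9.14 at P21. Klk1, a tissue kallikrein, had 77, 82.5 and 132 CPM at P8, 64.9, 0.896 and 6.13 at P4, 10.6, 0.73 and 0.539 at P14 and at most 0.143 at P0 and P21. A single P4 library, replicate 1, thus came near the P8 range of Klk1 and was also the highest library outside P8 for Col2a1. Col23a1, a membrane collagen, was at 167 ± 35.7 CPM at P8 and 107 ± 13.7 at P4, Egfl7, a factor secreted by endothelium, at 42.2 ± 9.46 and 21.5 ± 6.3, Ly6d, a membrane-anchored protein, at 36.1 ± 6.94 and 8.54 ± 13.7, and Cgn, a tight junction protein, at 20.7 ± 2.09 and 9.28 ± 8.88. Of 16 collagen and laminin genes at 10 CPM or more at P8, 2 were among the 70, and of 173 solute carrier genes at that level 2 were, where 0.73% of all genes at that level were. Slc22a8, an organic anion transporter, had 17.8, 18.8 and 29.4 CPM at P8 and at most 10.9 elsewhere. Slc7a8, an exchanger of neutral amino acids, had 20.5, 3.12 and 0.907 CPM at P0, 9.2, 51.6 and 60.2 at P4 and 72.6, 86.1 and 71.1 at P8, and 63.6, 53.7 and 67.3 at P14.

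In trafficking, cytoskeleton and folding, Dynlt1b, a light chain of dynein, had 69.6, 65.1 and 76.9 CPM at P8, 31, 0.182 and 0.718 at P14 and 19.1, 14.2 and 11.8 at P21, and under 1 CPM in every P0 and P4 library. Near-identical copies lie beside it, and reads that match several copies equally are lost from the counts, because only uniquely mapped reads were kept. The copies did not share its course: Dynlt1a was at 169 ± 3.93 CPM at P4 and 132 ± 23.2 at P8, and Dynlt1f at 129 ± 34.9 and 62.1 ± 1.59. Hspb1, a small heat shock protein, had 33.7, 28.6 and 24.1 CPM at P8 and at most 18.9 elsewhere. Canx, a chaperone of the endoplasmic reticulum, was at 856 ± 62.1 CPM at P8 and 707 ± 82.9 at P4, Wdr1, which promotes actin filament disassembly, at 215 ± 19.9 and 168 ± 13.1, and Vps26c, of the retriever complex, at 112 ± 33.3 and 52.1 ± 6.7. Relch, a protein of recycling endosomes, was at 74.5 ± 21.3 CPM at P8 and Tekt5, a tektin, at 15 ± 6.26. Of 18 endoplasmic reticulum chaperone and stress genes at 10 CPM or more at P8, Canx alone met the rule, where 0.73% of all genes at that level did. A single gene cannot be told apart from that share. Of the 18, 2 had their highest mean at P8, and the share of all genes that did is not given here.

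The remaining genes were of mixed kinds. Ifi203, an interferon-inducible protein whose family members are alike in sequence, had 56.2, 21.5 and 35.2 CPM at P8 and at most 15 elsewhere. Glrx, which reduces glutathione-bound proteins, was at 112 ± 3.11 CPM at P8, Pla2g16, a phospholipase, at 49.3 ± 5.36, Klhdc8a at 41.8 ± 9.4, Ankrd13d at 42.2 ± 5.79, Rpl28 at 100 ± 6.04 and 1700028P14Rik at 21 ± 7.85. The non-coding genes were 8030453O22Rik with 41.2, 21.9 and 16.3 CPM, Gm15083 with 38, 71.6 and 35.9, Dlx4os with 157, 171 and 119 and the pseudogene Gm10039 with 285, 257 and 267, whose reads may belong to its parent gene. Overlapping genes limit some of these values, because the strand setting of the counting is not given in the sources used here. Of the 70 genes, 17 overlap another gene with a count at P8 and 8 overlap one at 10 CPM or more, among them Gm15083 with Atp2b2 (2067 CPM), Gfm1 with Lxn (252) and Ndufb5 with Mrpl47 (49.5). Dlx4os lies opposite Dlx4, which was at 7.88 CPM at P8.

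The rule capped the 70 genes at the other ages, because each of the 12 other libraries had to lie below the lowest P8 library. The genes tested as a whole were not chosen in this way. Counts and medians of the 70 beside those of all genes are thus shaped in part by the rule, in every contrast below. What the rule did not fix is the order of the 70 genes among the other ages. The 12 libraries of P0, P4, P14 and P21 were therefore fitted without P8 (edgeR quasi-likelihood test, adjusted over the 13918 genes tested, threshold 0.05), and 69 of the 70 passed the filter on low counts, all but Rasd1. Between P0 and P4, 160 genes rose (1.15%) and 24 fell (0.172%). Of the 69, 4 rose, namely Dlx4os, Aqp4, Dlst and Oxct1. None fell by edgeR or by DESeq2, and 1 was lower at an unadjusted p under 0.05. The median log2 difference was 0.50 over the 69 and 0 over all genes tested. Aqp4 rose by a log2 fold change of 2.32 ± 0.426 (SE, adjusted p = 0.0174 by edgeR), and without replicate 1 of P4 the adjusted p was 0.0523. Oxct1 rose by 0.93 ± 0.185 on the log2 scale (adjusted p = 0.0271 by edgeR, 0.0762 without replicate 2 of P4), and Dlst by 1.37 ± 0.311 (adjusted p = 0.0492, past the threshold in 4 of 17 alternatives). Dlx4os had 0, 0 and 1.36 CPM at P0 and 67, 44.3 and 21.4 at P4 (adjusted p = 0.00228 by edgeR), all P4 libraries being above all P0 libraries. Among the 10 glial markers Aqp4 was the only one that rose, and 3 of 12 PC markers rose over the same interval (Calb1, Itpr1 and Car8).

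From P14 to P21, 5 genes rose (0.0359%) and 26 fell (0.187%). None of the 69 rose or fell by edgeR. At an unadjusted p under 0.05, none was higher and 7 were lower, and DESeq2 called 2 lower and none higher. The median log2 difference was -0.25 over the 69 and -0.028 over all genes tested. Of the 10 glial markers 1 fell, Fabp7, a lipid-binding protein of radial and Bergmann glia.

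Late libraries (P14 and P21) were then set against early ones (P0 and P4), which share samples with the comparisons above. In this contrast 1908 genes were called higher (13.7%) and 2009 lower (14.4%), and the median over all genes tested was -0.103. Of the 69, 13 were called higher and 1 lower, with a median log2 difference of 0.16. Oxct1 was higher late by 0.87 ± 0.131 on the log2 scale (SE, adjusted p = 0.000218 by edgeR), Prex2 by 2.08 ± 0.322 (adjusted p = 0.000259), Dlx4os by 4.18 ± 0.538 (adjusted p = 5.32e-05) and Epb41l3 by 0.64 ± 0.139 (adjusted p = 0.00349). Slc7a8 was higher by 1.99 ± 0.589 (adjusted p = 0.0222), Aqp4 by 0.90 ± 0.289 (adjusted p = 0.0331), Gm10039 by 0.76 ± 0.205 (adjusted p = 0.0128), Dlst by 0.66 ± 0.216 (adjusted p = 0.0364) and Ndufb5 by 0.40 ± 0.13 (adjusted p = 0.0351). Elavl4 was the only 1 of the 69 called lower, by a log2 difference of -0.87 ± 0.245 (adjusted p = 0.0166 by edgeR, 0.0514 without replicate 1 of P14). Leaving out replicate 3 of P21 gave an adjusted p of 0.0872 for Aqp4 and 0.0887 for Dlst, and leaving out replicate 1 of P21 gave 0.0812 for Ndufb5. Dynlt1b, Wnt10b and 8030453O22Rik, all at or near 0 in the early libraries, were also called higher (adjusted p = 0.0108, 0.0245 and 0.0133 by edgeR). Without replicate 1 of P14 the adjusted p was 0.12 for Dynlt1b and 0.0734 for Wnt10b.

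**Figure D5:**
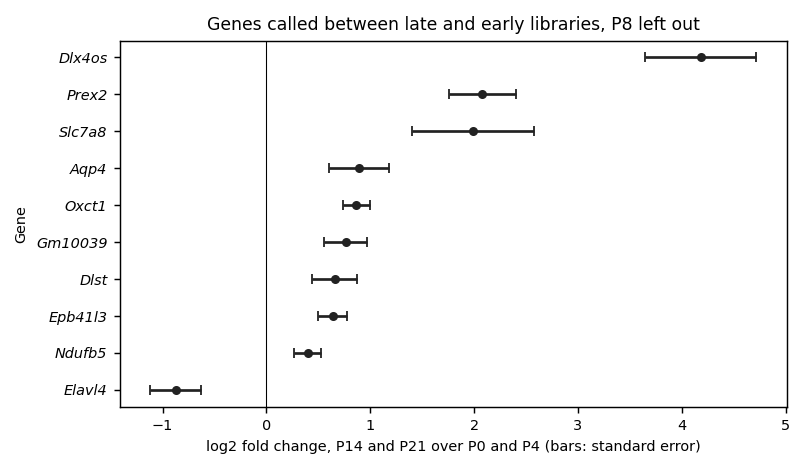
log2 fold change of P14 and P21 over P0 and P4 (horizontal axis, points) with its standard error (bars) for 10 of the 14 genes called in this contrast by edgeR, fitted without P8. Genes at or near 0 in the early libraries are left out, and 9 of the 10 points are above 0.

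Since 4 of the 6 late libraries had at least 11.8 CPM of Dynlt1b and no early library had more than 0.929, the contrast was repeated with replicates 2 and 3 of P14 as the only late libraries, an alternative chosen after the data were seen. It called 740 genes higher and 572 lower. The number of genes tested in this fit is not given here, so these counts have no share beside them. Of the 69, 3 were called higher, Oxct1 (log2 difference 0.86 ± 0.171, adjusted p = 0.0113 by edgeR), Prex2 (2.14 ± 0.527, adjusted p = 0.0321) and Dlx4os (4.79 ± 0.72, adjusted p = 0.00264). Aqp4 was at 1.45 ± 0.405 (adjusted p = 0.0542) and Dlst at 0.87 ± 0.308 (adjusted p = 0.123), and Elavl4 at -0.12 ± 0.318 (adjusted p = 0.899). This fit has fewer libraries and lacks P21, so that age, library number and the division by Dynlt1b cannot be told apart in it.

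By list, the late libraries had 6 of the 10 glial markers higher (Aqp4 among them) and 2 lower (Fabp7 and Aldh1l1), and Gfap was in neither group. Of 18 endoplasmic reticulum chaperone and stress genes 10 were called higher, and Canx was not among them. Of 22 Wnt and BMP genes tested 6 were higher, Wnt10b included, and 1 lower. Over all genes tested, 13.7% were called higher and 14.4% lower. Other lists had many calls too. Of 12 PC markers, 10 were higher and 1 lower. All 6 oligodendrocyte markers and all 4 markers of mature granule cells were higher, and 19 of 24 cell cycle genes were lower. Many calls in a list were thus not particular to the lists named first. Whether any list differed from the shares of all genes was not tested.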

How the data were processed

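RNA of laser-captured PCs was measured in 15 libraries, 3 at each of 5 ages. The deposited values are whole read counts per Ensembl gene. According to the submitters' processing notes and the study's methods, the authors trimmed reads (cutadapt 1.2.1), aligned them with GSNAP to mm10 (GRCm38.p1) and counted uniquely mapped reads with HTSeq 0.5.3p9 in its strict intersection mode. The annotation release and the strand setting are not given in the sources used here. Of all tallied reads, 16.7 to 29.8% were in no gene and 1.16 to 1.57% were ambiguous, and both were left out of the library totals. Amplified reads without molecular identifiers are not independent molecules, and replicates of an age differed by more than counting noise (chi-square per gene 19.3 to 59.5).

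CPM was computed from the summed gene counts (3409371 to 7814951 per library). Symbols, coordinates and exon lengths came from GENCODE M21 (GRCm38) and promoters from RefSeq (GRCm38.p6). Contrasts among P0, P4, P14 and P21 used edgeR 4.0.16 (R 4.3.3) with TMM, its filter on low counts, the quasi-likelihood F test and Benjamini-Hochberg adjustment over all genes tested (threshold 0.05), with the age as factor and P8 left out of the fit. The scripts (Python 3.11.15) were tested on simulated data. Alternatives were RLE scaling, DESeq2 1.42.0, no filter, all 15 libraries, the replicate number as a block, CPM minimums of 5 and 20, TMM-scaled CPM and leaving out each library. The genes, gene lists and roles were chosen with earlier results of these data known, and roles, the ketone body genes outside the 70 and the glucocorticoid receptor site after the 70 genes were listed. One of the 70 genes, although counted, is not reported here. Replicate numbers did not pair the libraries: deviations from the age means correlated by -0.00442 on average between libraries of the same number and by 0.00223 between others.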

Additional observations from a re-analysis of the deposited data

How the results depend on the processing

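The number of genes peaking at P8 was 81 and 66 with minimums of 5 and 20 CPM and 51 with TMM-scaled CPM. It ranged from 70 to 189 when each library was left out in turn, and was 167, 189 and 144 without P8 replicates 1, 2 and 3. The lower end is set by the rule, because leaving out a library outside P8 can only add genes. It is therefore no measure of how stable the 70 genes are. Between P0 and P4, DESeq2 called 483 genes higher and 187 lower and 9 of the 70 higher, and the fit of all 15 libraries called 248 genes higher. The replicate block gave 98 genes higher and 12 lower and 2 of the 70 higher. Without one library at a time the genes ranged from 99 to 187 higher and 9 to 41 lower, and those of the 70 from 1 to 4 higher and 0 lower, the fewest without P4 replicate 1. Between P14 and P21, DESeq2 called 48 genes higher and 105 lower and 2 of the 70 lower, and no filter 10 and 40, with 1 of the 70 lower. The replicate block gave 3 and 15, and all 15 libraries 9 higher. Leaving out single libraries gave 2 to 8 higher and 11 to 37 lower, and 0 higher and 0 to 1 lower of the 70. For late against early, single libraries left out gave 1584 to 1971 genes higher and 1548 to 1914 lower, with 8 to 15 of the 70 higher (8 without P14 replicate 1) and 0 to 4 lower (4 without P21 replicate 3). DESeq2 called 2 of the 70 lower. With P14 replicates 2 and 3 as the only late libraries, 740 genes were higher and 572 lower, and 3 and 0 of the 70. That fit has fewer samples, its number of genes tested is not given here, and otherwise the cause was not tested. The replicate block, which rests on numbers that only name the libraries, left Dlst and Oxct1 between P0 and P4 (adjusted p = 0.0503 and 0.0643) and Dynlt1b between early and late (adjusted p = 0.0662, all by edgeR) without a call, and changed no other call on the 70 genes. No test on the 70 genes changed direction with a call on either side. The standard errors between P14 and P21 ranged from 0.16 (Ndufb7) to 2.36 (Tekt5) on the log2 scale, so that the smallest detectable difference depended on the gene. A level under 3 counts (0.384 to 0.88 CPM) is near the counting floor.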

Other observations

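Few genes had the opposite course, lowest at P8. By a rule that mirrors the one above (highest P8 library below the lowest of the 12 others, with a mean of at least 10 CPM outside P8), 15 of 9745 genes (0.154%) were lowest at P8. A number no smaller is expected by chance: the 12 highest libraries of 10269 genes averaged at least 10 CPM, and this number over the 455 ways to draw 3 libraries from 15 is 22.6. Slc19a2, a thiamine transporter, was at 0.49 ± 0.686 CPM at P8 (mean ± SD, n = 3) and at 9.89 ± 1.13 at P14, and its lowest other library was 2.61 times its highest P8 library. For Rgmb, a co-receptor of bone morphogenetic proteins, that ratio was 1.73, with 2.61 ± 0.819 CPM at P8 and 27.2 ± 8.37 at P0, and for Dmtn, an actin-bundling protein, 1.59. For Mettl15 it was 1.42, for Mycbp 1.25, and for the 10 others from Zfp180 to Gprasp2 1.19 or less. Cpe, a processing enzyme of neuropeptides and the most abundant of the 15, was at 522 ± 28.9 CPM at P8 and 942 ± 145 at P21. The P8 values chose these genes too, and no test was made.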
